A study of Mus musculus with 15 samples.

Results

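The regions described here are 781 places inside genes where signal from chromatin immunoprecipitation of p53 was called in all 3 organs of a mouse study, liver, spleen and thymus. They were chosen by presence in the 3 organ lists, as regions with identical chromosome, start and end in each, with a midpoint inside a RefSeq gene of any kind and more than 1 kb from both ends of every gene. They make up 40.5% of the 1930 regions common to the 3 lists (95% exact Clopper-Pearson interval 38.3 to 42.7, counting error only) and 18.9% of all 4137 distinct regions. The study used chromatin immunoprecipitation sequencing (ChIP-seq), which sequences DNA pulled down with a protein, in organs of mice labelled WT. Each organ has 5 libraries. They are 2 taken 3 h after 2 Gy of X-rays, 2 from untreated mice, and 1 input library sequenced without the antibody step. The labels name no antibody and give no strain, age or sex. The material was dissected organs, so each list mixes the cell types of its organ, and the labelled organ could not be checked because there are no expression values. Each organ has 1 deposited list that the labels attach to all 5 of its libraries, although its name refers to irradiation and IgG, a nonspecific antibody control. No values per library were analysed here. The lists therefore carry no replicates, no background from input and no measure of the radiation effect, and read depth is unknown. The list entries are single values per organ, and comparisons below are descriptions with no test. The membership in 3 lists and the position in genes chose the regions, and the scores did so through the lowest value admitted to each list.

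The transcription factor p53 is kept low by Mdm2 and Mdm4 and accumulates after DNA damage. It binds response elements made of a pair of decamers, in promoters and in introns, and switches on genes of cell cycle arrest, apoptosis, DNA repair and metabolism. Lymphocytes of thymus and spleen are known for rapid p53-dependent death after irradiation, while hepatocytes largely survive it.

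A genome sequence was not used here, so sequence was read only where a region overlapped a RefSeq promoter window of assembly GRCm38.p6, whose coordinates are those of mm10. A window runs from 250 bases before to 50 bases after an annotated start. Windows were available for 27025 genes, against 49943 genes of any kind, so overlaps with starts of the other genes were not seen. Because the regions lie away from the outer ends of genes, such windows belong to starts inside a longer gene. Of the 781 regions, 12 overlapped 15 windows, in Bpnt1, Srsf1, Kansl1, Tmem106c, Cd80, Flywch1, Gne, Dcaf10, Zfp638, Smg9, Rps27l and Usp4. These windows were scanned on both strands for the 20-base consensus response element of p53, taken as adjacent decamers with no spacer. At most 2 mismatches were found in 2 of the 15 windows, those of Rps27l (1 mismatch) and Cd80 (2 mismatches), and in 0.798% of all 32851 promoter windows. The windows that overlapped common regions at gene ends held such a match in 18 of 232 cases (7.76%). A match is a description of letters and not a measured binding site. The stretches below are the parts of 4 regions that lie in a promoter window before its annotated start, 5′ to 3′ on the strand of the gene. They show the pair with the closest matches beside Smg9 and Bpnt1, regions ranked high in liver and low in the lymphoid organs. The stretch of Rps27l lies before the start at base 66946413 but after another annotated start of that gene, at base 66946086. Capitals mark the 20 bases with the fewest mismatches in each stretch, which number 1 in Rps27l, 2 in Cd80, 4 in Smg9 and 5 in Bpnt1.
Rps27l (chr9:66946163-66946412): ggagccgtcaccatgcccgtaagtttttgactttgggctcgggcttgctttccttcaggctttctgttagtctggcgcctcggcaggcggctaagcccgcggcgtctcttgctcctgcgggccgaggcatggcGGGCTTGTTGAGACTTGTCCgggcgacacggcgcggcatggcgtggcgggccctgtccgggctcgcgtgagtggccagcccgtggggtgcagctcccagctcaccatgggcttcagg
Cd80 (chr16:38458701-38458932): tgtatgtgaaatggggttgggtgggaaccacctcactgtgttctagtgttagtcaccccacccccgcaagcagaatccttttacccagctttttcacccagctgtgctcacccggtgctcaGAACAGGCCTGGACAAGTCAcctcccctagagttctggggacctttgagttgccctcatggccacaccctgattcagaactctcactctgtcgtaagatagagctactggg
Smg9 (chr7:24399401-24399627): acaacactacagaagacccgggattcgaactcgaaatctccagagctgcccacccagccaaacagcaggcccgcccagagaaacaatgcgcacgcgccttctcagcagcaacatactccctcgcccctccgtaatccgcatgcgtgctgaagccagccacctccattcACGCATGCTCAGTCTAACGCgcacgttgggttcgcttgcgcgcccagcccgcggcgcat
Bpnt1 (chr1:185332001-185332158): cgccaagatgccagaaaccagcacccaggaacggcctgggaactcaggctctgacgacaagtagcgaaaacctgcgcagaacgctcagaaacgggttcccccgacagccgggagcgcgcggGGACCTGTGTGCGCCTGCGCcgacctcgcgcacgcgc
All 4 genes are on the plus strand.

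The regions sat mostly in long protein-coding genes. A coding host was found for 656 of the 781 (84.0%, interval 81.2 to 86.5), in 609 distinct genes when the longest coding host was taken for each region. The other 125 lay only in genes of other kinds, 114 of them in long noncoding RNA genes. A host other than the one counted also covered 41 regions. The median length of the coding hosts was 86.3 kb (76.9 to 97.7, order-statistic 95% interval, n = 609), with a range of 3.73 to 1998 kb. The median over all 21887 coding genes was 17.2 kb (16.8 to 17.6). Of the hosts, 44.5% were longer than 100 kb, against 11.1% of all coding genes. A long gene offers more bases to fall in, and the base at the middle of all coding gene length belonged to a gene of 138 kb.

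Set against the bases available, long genes did not hold more regions per base. Bases inside genes and more than 1 kb from every gene end are called eligible here, and they summed to 1147 Mb, which gives 0.681 regions per Mb. Coding genes up to 10 kb held 1.07 regions per eligible Mb and those of 10 to 30 kb held 0.772. The density was 0.984 in genes of 30 to 100 kb and 0.740 in genes of 100 to 300 kb. In genes longer than 300 kb it was 0.285 regions per eligible Mb. The share of genes that held a region went the other way, with 18 of 7926 genes up to 10 kb (0.227%) and 75 of 557 genes longer than 300 kb (13.5%). Density per base was thus lowest in the longest genes, while the share of genes that held any region was highest there.

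Along the gene, the regions were spread over the whole length. Strand was known for the coding hosts of 538 regions, and their median position was 45.5% of the way from the 5′ to the 3′ end (41.8 to 50.3, n = 538). The first 30% of the gene held 53, 62 and 63 regions in 3 successive steps of 10%, at 0.803, 0.793 and 0.796 per eligible Mb. The last 10% held 38, at 0.574 per eligible Mb, and the steps between ran from 0.592 to 0.746. Within 10 kb of the 5′ end of the host lay 105 of the 538 (19.5%) and within 10 kb of the 3′ end lay 90 (16.7%). The nearest end of any gene was a median of 9.80 kb away (8.91 to 11.04, n = 781), and it may belong to another gene nested in the host. A distance of more than 50 kb from every gene end was found for 74 regions, and more than 100 kb for 19.

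**Figure D1:**
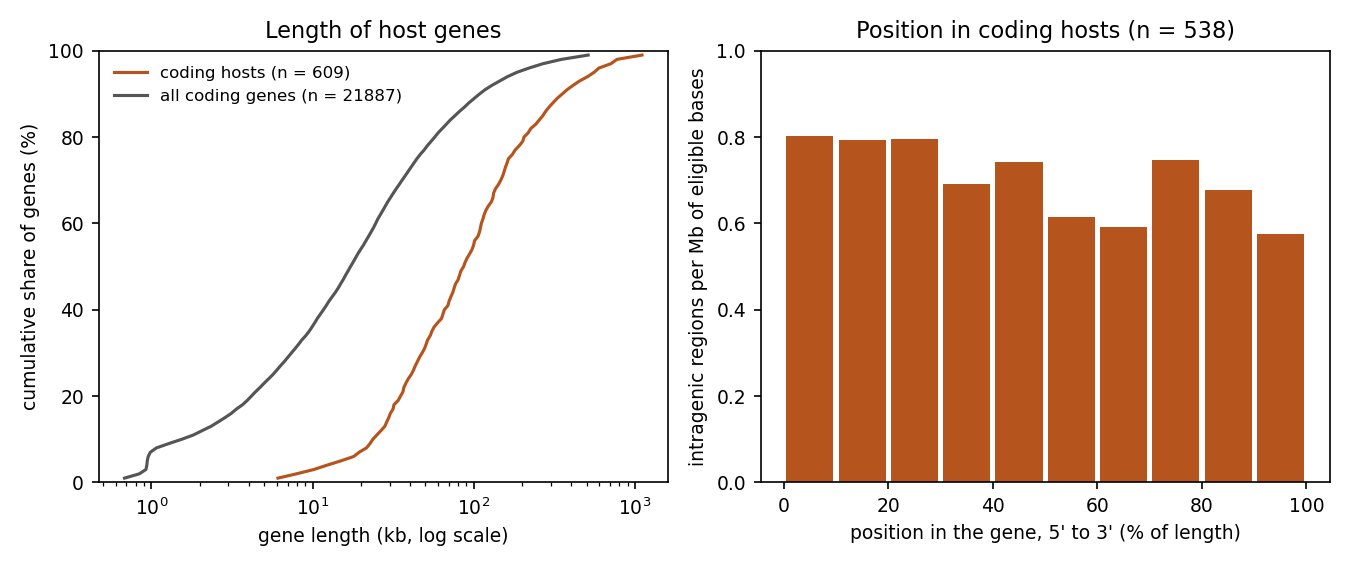
Left, cumulative share of genes by length (kb, log scale) for the 609 coding hosts of the regions and for all 21887 coding genes; the curve of the hosts lies to the right, with medians of 86.3 and 17.2 kb. Right, regions per Mb of eligible bases (bars) in steps of 10% of the host from the 5′ to the 3′ end, for the 538 regions whose coding host has a known strand; the bars run from 0.803 in the first to 0.574 in the last.

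At the limit of the choice, the values on either side of 1 kb were not alike in any one direction. The nearest regions inside the limit were those of Chchd5 (chr2:129130601-129130850, 1025.5 bp from a gene end; liver, spleen and thymus percentiles of 33.5, 40.02 and 41.7) and Gm39092 (chr7:128359701-128359950, 1032.5 bp; 3.51, 6.18 and 73.1). Just outside lay the regions in 4930557F10Rik (chr13:23281201-23281350, 991.5 bp; 79.6, 56.5 and 85.2) and Gm32695 (chr7:81836501-81836550, 989.5 bp; 4.83, 74.6 and 36.5). The lowest scores among the 781 were 7.06 in liver, 6.998 in spleen and 7.05 in thymus.

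The score of a region is the authors' value on a scale not given in the sources used here, so it is given as a percentile within its organ list, where 100 is the highest score. Many scores are tied, with 2615 distinct values among 3872 liver regions, 1752 among 2604 spleen regions and 1579 among 2405 thymus regions. The regions inside genes had a median percentile of 50.3 in liver (45.9 to 54.1), 62.0 in spleen (58.7 to 64.9) and 62.8 in thymus (58.9 to 65.5; n = 781 each). Ranked among the 1930 common regions alone, a setting added once the scores had been looked at, the medians were 48.2, 54.4 and 57.4. The order of the organs turned round with lists cut to equal length by score, where 466 regions were common, with medians of 72.9 in liver, 71.4 in spleen and 68.4 in thymus. Those percentiles are still ranks in the full lists, so the cut removes the low end of the longer liver list by construction. With each list cut to its upper 50% the medians of 241 regions were 83.8, 82.3 and 85.6. Common regions at gene ends (n = 366) had medians of 63.9 in liver, 36.7 in spleen and 32.6 in thymus. Common regions outside genes (n = 783) had 48.7, 61.0 and 57.5. The liver percentile was the lowest of the 3 for 379 regions inside genes and the highest for 230. A coding host or only a noncoding one made little difference to these medians, at 49.5, 62.1 and 63.1 with a coding host (n = 656) and 55.7, 62.0 and 60.9 without (n = 125).

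**Figure D2:**
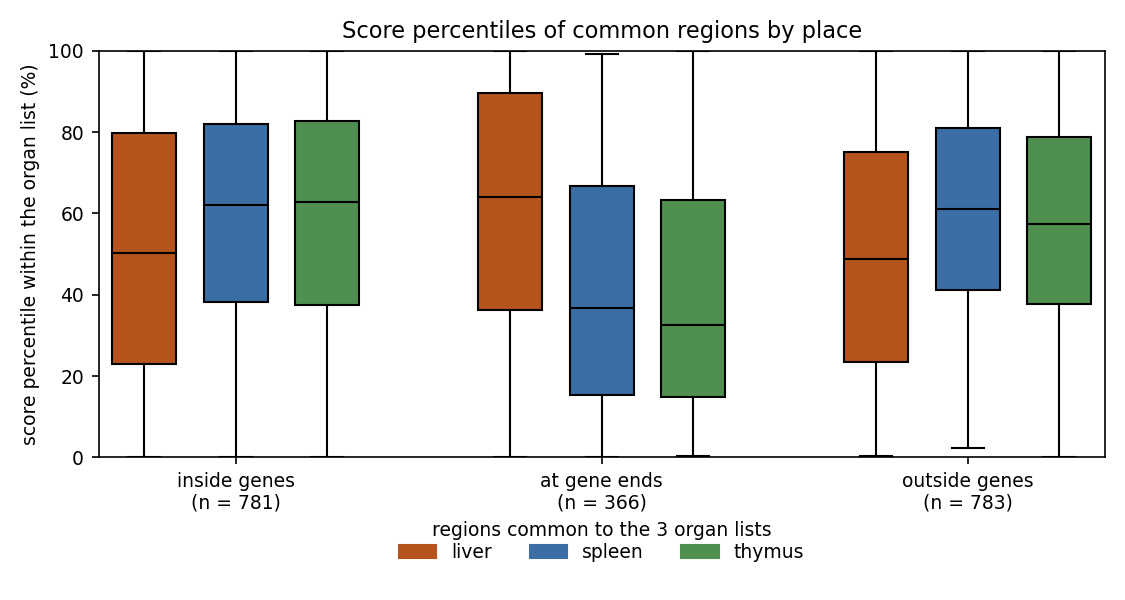
Score percentile within the organ list (vertical axis, %) of the regions common to the 3 lists, for the 781 regions inside genes, the 366 at gene ends and the 783 outside genes, with boxes for liver, spleen and thymus. Boxes span the quartiles, lines mark the medians and whiskers reach the lowest and highest values; inside genes the medians are 50.3, 62.0 and 62.8, and at gene ends 63.9, 36.7 and 32.6.

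Over the 781 regions, ranks were closer between spleen and thymus than between liver and either. Spearman's rho was 0.512 between spleen and thymus, 0.305 between liver and spleen, and 0.254 between liver and thymus. These are descriptions across regions, which share a list within each organ and a common set of boundaries, and are not independent replicates. The median distance between percentiles was 15.6 points between spleen and thymus, 22.4 between liver and spleen, and 24.3 between liver and thymus. A liver percentile more than 30 points above the mean of spleen and thymus was found for 92 regions (11.8%), and one more than 30 points below it for 203 (25.99%). Among common regions at gene ends the numbers were 149 (40.7%) and 40 (10.9%), and among those outside genes 66 (8.43%) and 185 (23.6%). The distance from gene ends did not change this balance by much. At 1 to 2 kb, 13 of 93 regions were over 30 points higher in liver and 29 were over 30 points lower, and beyond 50 kb the numbers were 10 and 18 of 74.

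Width went with rank in each organ. The regions were 50 to 1750 bp wide, with a median of 250 bp. The 105 regions of 50 to 100 bp had median percentiles of 20.5 in liver, 37.8 in spleen and 38.5 in thymus. The 65 regions of 550 bp or more had medians of 95.3, 95.4 and 94.1. Spearman's rho of width and score over the 781 was 0.584, 0.568 and 0.572. The boundaries are common to the organs, so 1 width stands beside 3 scores.

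High rank in every organ was found for 31 of the 781 regions (3.97%), which were in the upper 10% of all 3 lists. The same share is not given here for the other common regions, which also include regions of such rank. Examples are chr1:155055501-155056750 at a gene end (99.9, 97.4 and 99.4) and chr14:76084101-76084550 outside genes (98.2, 97.2 and 97.1). Of the 31 regions inside genes, 28 had a coding host, and the median width of the 31 was 550 bp. The highest mean percentile was that of Zmat3, which encodes an RNA-binding zinc finger protein and is a known p53 target, at 99.8, 99.6 and 99.8 (chr3:32364101-32364550). The Zmat3 region lay 1.16 kb from the nearest gene end, just past the limit of 1 kb. Second was a region in the pseudogene Gm6951 (chr19:44253901-44254850), at 98.3 in liver, at 99.001 in spleen and at 99.8 in thymus. Next came Bcl2l11, the gene of the BH3-only protein Bim, with a region 8.09 kb from its 5′ end (chr2:128133801-128134450) at 98.3, 99.3 and 99.4. Each of these stood near the top of all 3 lists.

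The other 9 of the 12 highest lay in genes of various kinds. Ppp3ca, which encodes a catalytic subunit of the phosphatase calcineurin, held one 121 kb from any gene end (chr3:136790401-136790950) at 98.7 in liver, at 97.2 in spleen and at 98.1 in thymus. A second region in Ppp3ca, not among the 12, ranked lower, at 64.3, 25.8 and 18.5 (chr3:136691901-136692050). Laptm5, the gene of a lysosomal membrane protein of blood cells, held one at 97.02, 99.3 and 98.1 (chr4:130921101-130921750). The region in Slc25a36, which encodes a mitochondrial carrier, ranked at 95.3, 98.8 and 99.8 (chr9:97103401-97104050). Nr1d2, the gene of the clock repressor REV-ERB beta, is also in this group, at 98.9, 98.8 and 95.4. The region in Mtmr10, a gene of the myotubularin family, ranked at 99.99 in liver, at 96.1 in spleen and at 97.0 in thymus (chr7:64327001-64327850). Lhfpl3 (99.3, 98.6 and 97.6), Sh3bgrl2 (99.4, 99.2 and 94.1) and the noncoding genes Gm13067 (99.02, 97.8 and 98.1) and 2900052L18Rik (99.7, 94.0 and 98.9) complete the 12 highest. Among these 12, all 3 percentiles were above 94.

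At the other end, the lowest mean percentiles belonged to Gne, which encodes the rate-limiting enzyme of sialic acid synthesis (9.66 in liver, 1.04 in spleen and 13.7 in thymus), Spop, a substrate adaptor of a ubiquitin ligase (4.13, 10.4 and 34.6), and Vmp1, a gene of autophagy (7.05, 37.8 and 6.20). These 3 regions were 150, 50 and 50 bp wide. No region was in the lower 10% of all 3 lists.

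Genes of 6 lists of p53 targets and regulators held 39 of the 781 regions, in 32 of 188 genes (17.0%, interval 11.9 to 23.2). Of all coding genes, 613 held a region (2.80%). Per eligible Mb, the p53 lists had 4.31 regions and all coding genes 0.668. The lists were drawn up with earlier results of these data known, so the counts describe them and support nothing further. Their 39 regions had median percentiles of 65.6 in liver (42.1 to 86.7), 73.9 in spleen (64.6 to 89.0) and 69.0 in thymus (55.6 to 86.8). The other 742 had 50.1 (45.5 to 53.5), 61.5 (57.5 to 64.2) and 62.4 (58.3 to 65.5). The intervals of the groups overlapped in liver and in thymus.

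In the list of p53 feedback and p53 regulation, 4 of 22 genes held 7 regions. Mdm4, whose product inhibits p53, held a pair of regions 0.350 kb apart. That at chr1:133020101-133020650 ranked at 88.1 in liver, at 95.4 in spleen and at 98.6 in thymus, and its neighbour at chr1:133019301-133019750 ranked at 40.7, 87.9 and 56.4. Ptpn14, a phosphatase gene that p53 is known to induce, held 3 regions along 120.2 kb. Their percentiles ran from 8.19 to 34.9 in liver, from 54.8 to 75.7 in spleen and from 44.4 to 90.4 in thymus, so that each of the 3 was lowest in liver. Ptp4a3, another phosphatase gene, had 28.8 in liver, 76.3 in spleen and 98.6 in thymus (chr15:73749301-73749650). The region in Trp73, a gene of the p53 family, had the reverse order, at 74.1, 49.8 and 7.19 (chr4:154105701-154105950).

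In the cell cycle list 3 of 25 genes held 1 each (interval of the share 2.55 to 31.2%). Cdkn1a, which encodes the p21 inhibitor of cyclin-dependent kinases, held one 3.55 kb from its 5′ end (chr17:29094301-29094750) and 756.5 bp from another annotated start of the gene. This region ranked at 96.4 in liver, at 43.6 in spleen and at 13.6 in thymus. Btg1, an antiproliferative gene, had the opposite order, at 29.2, 64.6 and 81.3 (chr10:96621201-96621650). In the apoptosis list 4 of 30 genes held 5 regions. A second region in Bcl2l11 (chr2:128152701-128152850) ranked at 0.517 in liver, at 73.1 in spleen and at 5.28 in thymus, far below the first in liver and thymus. Bcl2l1, the gene of the survival protein Bcl-xL, held one at 97.5, 56.1 and 33.6 (chr2:152792401-152792850). The death receptor gene Fas had its highest percentile in thymus, at 65.6 in liver, at 57.3 in spleen and at 86.8 in thymus. Pidd1, which encodes a death domain protein, had 13.0, 35.0 and 10.7.

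In the DNA repair list 5 of 25 genes held a region. Rps27l, a ribosomal protein gene induced by p53, had liver, spleen and thymus percentiles of 99.5, 93.2 and 69.0, and Rnf169, a gene of the double-strand break response, had 96.8, 66.1 and 56.0 (chr7:99979601-99980050). The excision repair gene Ercc5 was lower in liver than in both lymphoid organs (26.9, 68.3 and 89.9).

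Metabolic and stress genes gave 6 hosts among 33 genes, with 7 regions. Foxo3, a stress-responsive transcription factor gene, held one at 86.7 in liver, at 89.0 in spleen and at 98.5 in thymus (chr10:42261101-42261550). Tsc2, which restrains mTORC1, had 43.3, 95.4 and 63.3 (chr17:24604701-24605050). Abcb4, the phospholipid exporter of bile, had 98.5, 90.8 and 98.9. Lpin1, a phosphatidate phosphatase gene, held a pair 0.550 kb apart whose orders were opposite, at 68.4, 26.02 and 7.07 for chr12:16587901-16588050 and 42.1, 52.1 and 63.7 for chr12:16588601-16588850. Slc2a9, a urate transporter gene, had 44.2, 12.3 and 24.6.

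The list of signalling and other targets gave 10 hosts among 53 genes, with 12 regions. Pdgfc, a growth factor gene, held one at 97.5 in liver, at 79.6 in spleen and at 97.4 in thymus (chr3:81058201-81058650), and Tnfsf8, the gene of CD30 ligand, one at 84.2, 96.2 and 88.6 (chr4:63842101-63842550). The long noncoding gene Pvt1 held a pair, at 64.4, 97.8 and 98.9 (chr15:62039101-62039550) and at 14.8, 71.6 and 52.8 (chr15:62254801-62254950). In the lipoprotein receptor gene Lrp1 both regions were high in liver, at 82.4, 73.9 and 81.9 and at 84.5, 71.1 and 55.6. Ephx1, an epoxide hydrolase of xenobiotic metabolism, had 93.5, 80.3 and 49.4. The receptor kinase gene Epha2 had 94.3, 97.6 and 76.1. Cd80, a costimulatory ligand of antigen-presenting cells, had 48.0, 91.3 and 39.0, with spleen far above both other organs. Trim7, which encodes a tripartite motif protein, had 0.284 in liver, 94.5 in spleen and 42.1 in thymus. Exoc4 (54.9, 38.6 and 74.0) and Arhgef3 (32.4, 17.4 and 61.8) had their highest percentile in thymus.

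**Figure D3:**
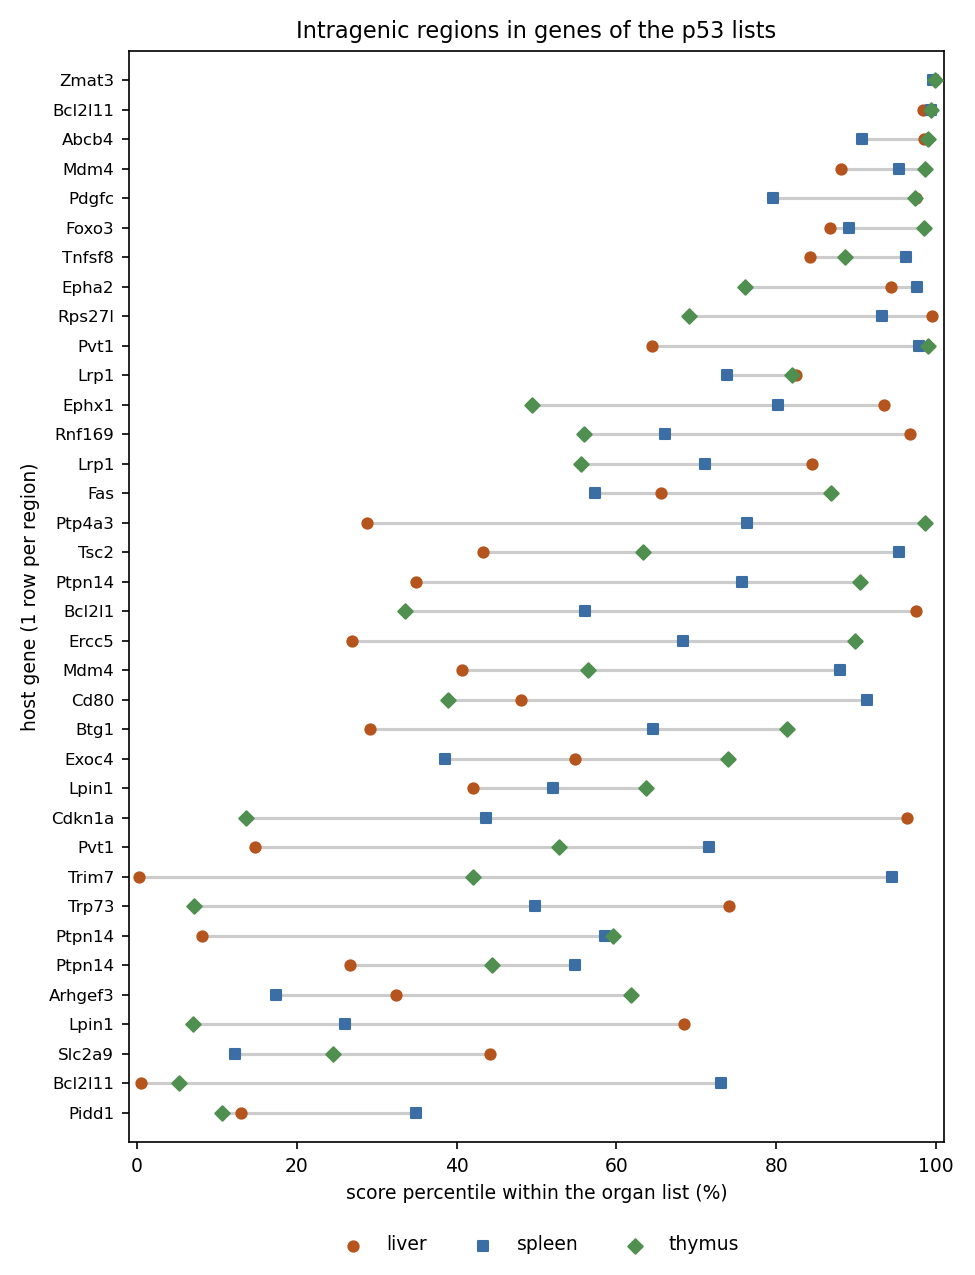
Score percentile within the organ list (horizontal axis, %) of 36 of the 39 regions inside genes of the 6 p53 lists, 1 row per region in order of the mean percentile, with markers for liver, spleen and thymus joined by a grey line. Zmat3 and the first Bcl2l11 region lie above 98 in every organ, while Cdkn1a runs from 96.4 in liver to 13.6 in thymus and Trim7 from 94.5 in spleen to 0.284 in liver.

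The 5 regions with the largest excess of the liver percentile are extremes, chosen by that difference. The largest was that of Smg9, a gene of nonsense-mediated mRNA decay, at 97.9 in liver, at 16.9 in spleen and at 6.86 in thymus. Zfp710, a zinc finger gene, held one 2.01 kb from its 5′ end at 96.8, 4.92 and 17.6 (chr7:80026501-80027150). Peg10, an imprinted gene derived from a retrotransposon, had 85.8, 0.998 and 4.43 (chr6:4749401-4749450). Srsf1, a splicing factor gene, had 95.3, 13.9 and 15.5 (chr11:88047401-88047750). Angptl6, the gene of an angiopoietin-like factor, had 90.3, 17.2 and 6.15 (chr9:20878001-20878550).

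The 5 regions with the largest deficit in liver were chosen in the same way. Rbms3, an RNA-binding protein gene of 1057 kb, held a region of 750 bp at 1.96 in liver, at 96.5 in spleen and at 93.8 in thymus (chr9:117158901-117159650). Impg1, which encodes a proteoglycan of the retina, had 0.775, 77.8 and 96.4 (chr9:80368701-80368850). Msn, the gene of moesin, which links membrane to actin in lymphocytes, had 1.76, 97.0 and 71.9 (chrX:96122001-96122050). The centriole gene C2cd3 (5.42, 89.7 and 83.2) and the glycosyltransferase gene Galnt7 (3.15, 88.1 and 77.1) followed. The nearest gene end was 12.9 to 56.0 kb from these 5 regions and 1.08 to 2.12 kb from the 5 above, but over all regions past 30 points such a contrast was not seen. At 1 to 2 kb from a gene end lay 13 of the 92 that were higher in liver and 29 of the 203 that were lower.

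Spleen and thymus also differed at single regions. Cdk5rap1, a tRNA-modifying enzyme gene, held a region at 10.95 in liver, at 91.2 in spleen and at 1.48 in thymus (chr2:154244701-154244850), and the noncoding genes Gm40747 (60.4, 98.8 and 12.3) and Gm41147 (83.4, 87.4 and 2.14) had the next largest gaps of this sign. On the thymus side stood Bcl11b, a transcription factor gene needed for T-cell identity, at 51.8, 0.115 and 85.4 (chr12:107937601-107937850). Its spleen score of 6.998 was the lowest spleen score among the 781 regions. Gm8909, annotated as a coding gene on chromosome 17, had 23.0, 12.8 and 95.4, and Enox2 on chromosome X had 51.7, 10.4 and 85.7.

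Starts inside genes were near a small group of the regions. An annotated start lay within 1 kb of the midpoint of 27 regions. Their median percentile was 61.5 in liver (42.6 to 86.3), 31.9 in spleen (18.6 to 64.3) and 25.4 in thymus (13.7 to 58.3; n = 27). The other 754 had medians of 50.3, 62.7 and 63.8, a group that includes 16 regions on a chromosome not in the table of starts used here. That table covers 27025 genes, against 49943 genes of any kind, so hosts on other chromosomes can lack a start too. Peg10 and Ppp3ca are examples. The 27 are therefore regions near a tabulated start, and the 754 may include others near a start that is not tabulated. Liver had the highest percentile in 15 of the 27, against 28.5% of the 754. From the p53 lists, the 27 include Cdkn1a, Rnf169 and Rps27l, highest in liver, and Pidd1 and Cd80, highest in spleen. Of the 12 regions that overlapped a promoter window, 10 were highest in liver. Kansl1, a subunit gene of a histone acetyltransferase complex, had 93.8, 64.3 and 78.6, Bpnt1, a nucleotidase gene, 75.6, 21.8 and 29.3, and Usp4, a deubiquitinase gene, 64.4, 14.4 and 16.0. The exceptions were Cd80, highest in spleen, and Gne, highest in thymus. These values follow the order of the common regions at gene ends, and no test was run because the scores chose the regions.

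**Figure D4:**
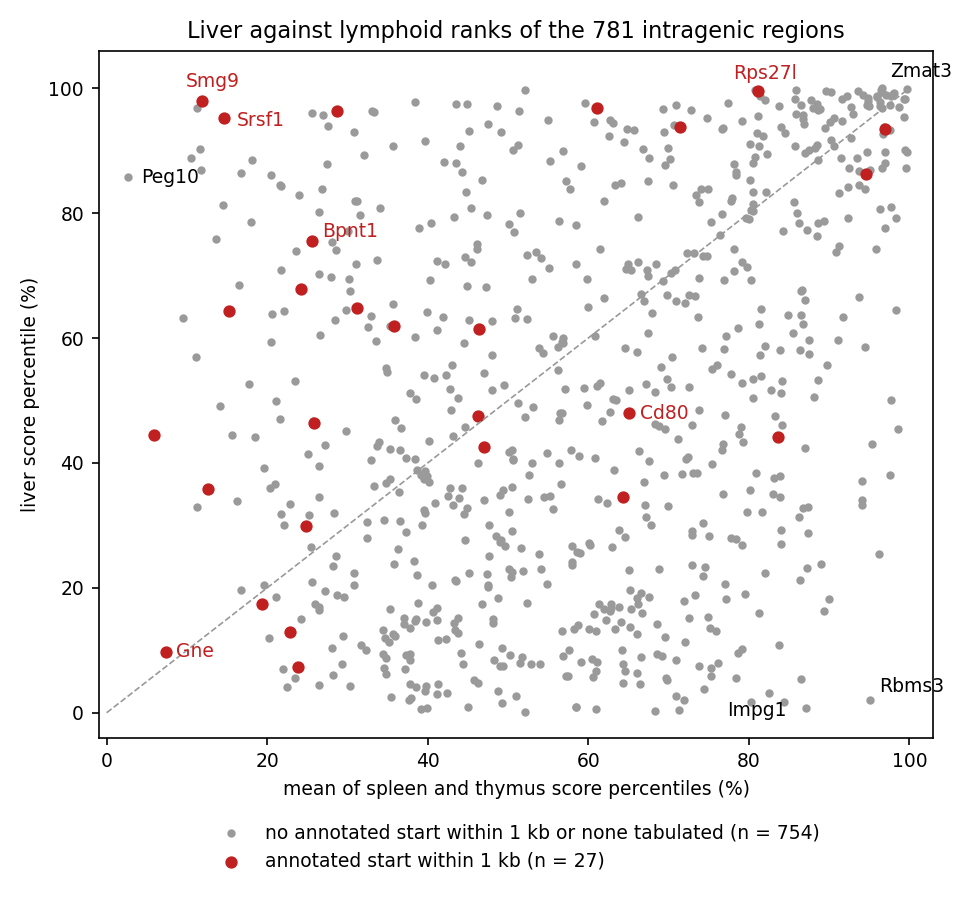
Liver score percentile (vertical axis, %) against the mean of the spleen and thymus percentiles (horizontal axis, %) for the 781 regions inside genes; the dashed line marks equal values. Red points are the 27 regions with an annotated start within 1 kb, of which Smg9, Srsf1 and Bpnt1 lie far above the line, and grey points the other 754, with Rbms3 and Impg1 at the lower right.

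Most hosts held 1 region, and a few held several. Of the 609 coding hosts, 567 held 1, 37 held 2 and 5 held 3. The 5 were Foxp1, Lhfpl3, Ptpn14, Tnrc6b and Zbtb20, with lengths of 148 to 759 kb. The regions of Foxp1, a forkhead factor gene that acts in lymphocyte development, were highest in thymus in each case, at 87.6, 74.7 and 98.1, against 8.38, 40.0 and 77.2 in liver and 54.2, 17.9 and 70.5 in spleen. Tnrc6b, which encodes a partner of Argonaute proteins, had all 3 of its regions lowest in liver, at 13.2 to 23.7. Zbtb20, a repressor gene, held 1 region high in every organ (97.2, 94.5 and 95.4; chr16:43574001-43574750) and 2 lowest in liver (6.40, 65.5 and 66.6, and 20.2, 67.1 and 27.9).

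Close neighbours were counted for these regions alone, and the share over all regions of the lists is not given here. Another region of any list lay within 10 kb of 87 regions (11.1%) and within 2 kb of 25, and the median gap was 105 kb. Of the coding hosts, 80 (13.1%) also had a region of some list at an end of their own, and 12 had one common to the 3 lists. The same share over all coding genes is not given here, so neither count is read as high or low. The 12 hosts with a common region at an own end include Cdkn1a, Foxo3, Ppp3cc, Ppp4r2, Exoc4 and Actn4.

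Among gene families, protein phosphatases had the highest density. The list holds 164 coding genes by symbol pattern, of which 18 (10.98%, interval 6.64 to 16.8) held 23 regions, or 1.54 per eligible Mb, against 0.668 for all coding genes. Besides Ppp3ca they include the calcineurin subunit gene Ppp3r1 (63.4, 94.5 and 89.1) and Ppp6r3, a regulatory subunit gene of protein phosphatase 6 (98.7, 96.5 and 95.4; 1050 bp wide). Ptpn14 and Ptp4a3, named above, count here too. Chromatin and histone modifier genes gave 10 of 158 hosts (6.33%) and 0.912 regions per Mb, with Smarcc1 of the SWI/SNF complex highest (78.1, 62.4 and 54.7). Protein kinase genes gave 15 of 217 (6.91%) and 0.751 per Mb, a count that includes Cdk5rap1, which encodes no kinase. The Src-family kinase gene Fyn led them (97.9, 92.4 and 97.4; chr10:39456001-39456750), followed by the casein kinase gene Csnk1g1 (45.5, 98.3 and 98.9).

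Zinc finger genes gave 13 hosts among 478 (0.889 per Mb), ubiquitin pathway genes 13 among 408 (0.737), small GTPases and their regulators 10 among 236 (0.532) and transporters 14 among 524 (0.513). The lowest densities were those of ion channel and neurotransmitter receptor genes, at 4 of 241 genes and 0.123 per Mb, and of adhesion and axon guidance genes, at 6 of 236 and 0.144 per Mb. Both of these families are long, with median gene lengths of 52.1 and 85.1 kb. Protein kinase genes, with a median of 57.0 kb, had 0.751 per Mb, and a link of length to density across families was not tested. Hosts in the ion channel and adhesion lists include Ano10 (86.1, 78.8 and 78.2) and the protocadherin gene Pcdh7. Pcdh7 held a pair 0.450 kb apart (79.8, 72.6 and 80.7, and 84.4, 64.6 and 76.6).

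Lists of genes that mark the organs' cells were small, and their counts are read beside the 2.80% of all coding genes that held a region, at 0.668 per eligible Mb. Hepatocyte genes gave 1 of 44 (2.27%), Lipc, which encodes hepatic lipase (76.4 in liver, 85.0 in spleen and 92.0 in thymus). T-cell genes gave 2 of 40 (interval 0.611 to 16.9%), Bcl11b and Tcf12, an E-protein gene (33.3, 96.5 and 91.7). B-cell genes gave 2 of 29 (6.90%), Bcl11a (3.18, 46.0 and 38.7) and Foxo1 (8.73, 42.9 and 26.7). Myeloid and erythroid genes gave 0 of 28. Circadian genes gave 3 of 22, Nr1d2, the kinase gene Csnk1e (53.5, 81.1 and 58.5) and Rora (78.6, 30.5 and 5.36). The densities were 0.894, 0.828, 1.06, 0 and 1.80 regions per eligible Mb in the same order of lists.

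The longest coding hosts were Macrod2 (1998 kb), Fhit (1612 kb), Agbl4 (1267 kb) and Csmd3 (1212 kb), each with 1 region. Fhit, which spans a common fragile site, had 9.97 in liver, 64.0 in spleen and 64.4 in thymus. Macrod2, which encodes an ADP-ribose hydrolase, had 91.5, 47.4 and 31.8 (chr2:141419101-141419250). Agbl4 (73.6, 70.3 and 76.0) and Csmd3 (59.2, 45.9 and 43.0) differed less between organs. The widest regions, of 1750, 1350 and 1050 bp, lay in Gm38956 (99.7, 96.5 and 75.3), Glipr2 (98.3, 89.0 and 82.5) and Ppp6r3.

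Regions inside genes that were in liver alone, or in 2 lists, were narrower than the common ones. Of the 1266 regions inside genes in any list, 781 were common to all 3, 265 were in exactly 2 and 184 were in liver alone. The median width was 250 bp for the common ones and 150 bp for those of liver alone and for each pair of lists. The coding hosts of the liver-alone regions had a median length of 46.4 kb (33.5 to 63.2, n = 162). Hosts of regions in spleen and thymus only had 102 kb (79.1 to 133, n = 98). The liver percentile had a median of 44.3 in the liver-alone regions (36.9 to 54.5), an interval that overlaps that of the common ones (45.9 to 54.1).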

How the data were processed

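ChIP-seq regions of 3 organs were analysed from 3 deposited lists, 1 per organ, without header and with 6 columns. Coordinates are of mm10, per the submitters' processing notes. Aligner, region caller, settings and pooling are not stated in the labels (not given in the sources used here). The score in column 5 of the deposited lists is the authors' value; it was used only as a percentile within a list, with ties averaged. Genes came from RefSeq GRCm38.p6 (49943 genes of any kind, 21887 coding), promoter windows and strand from the RefSeq table of the same assembly (32851 windows of 27025 genes). The gene table has no exons, so exonic and intronic places could not be separated. Regions were placed by midpoint. The host was the longest coding gene, otherwise the longest gene of any kind.

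The members, gene lists and rules were chosen with earlier results of these data known. Named regions are the 12 highest and 3 lowest by mean percentile, the 5 largest organ differences of each sign for liver and 3 for spleen against thymus, those in the 4 longest hosts, in hosts with most regions (5 tied) and in p53 lists, the 3 widest, those nearest 1 kb and up to 4 hosts of each other list. Genes at internal starts, Foxp1 and Tnrc6b regions one by one, Airn and the receptor loci were named after their values were seen. A few regions of the p53 lists are counted but not reported here one by one. The 9 family lists are symbol patterns and take in a few genes outside the family. Intervals are exact Clopper-Pearson for shares and order-statistic for medians, at 95%, and cover counting error only. The placement script was tested on simulated data. Python 3.11.15, pandas 2.3.3, numpy 2.4.6, scipy 1.17.1 and matplotlib 3.10.9 were used.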

Additional observations from a re-analysis of the deposited data

How the results depend on the processing

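Of 79 values under 16 alternatives, 62 stayed within 1.5 times (counts) or inside the 95% interval (medians). The 62 include settings that returned every main value unchanged. Requiring the whole region inside the gene could change nothing, because regions at most 1750 bp wide, centred over 1 kb from every gene end, cannot cross one. Counting overlap of at least 1 bp in place of identical boundaries also gave the same regions and values. With each list cut to its upper 50% of scores, 241 regions were common, with a median host length of 76.2 kb, a distance of 8.73 kb to the nearest gene end and percentiles of 83.8 in liver, 82.3 in spleen and 85.6 in thymus, of which the percentiles are raised by construction; the cause of the shorter hosts was not tested. With lists cut to equal length 466 were common, at 72.9, 71.4 and 68.4. A gene-end limit of 5 kb gave hosts of 107.2 kb. The distance to the nearest end was 8.82 kb with a limit of 500 bp, 11.98 kb with 2 kb, 15.9 kb with 5 kb and 16.2 kb with coding genes only. Among the common regions alone, a setting chosen after the data were seen, the percentiles were 54.4 in spleen and 57.4 in thymus. Liver stayed below both lymphoid organs there and under each gene-end limit, but not in the upper 50% (liver above spleen) or with equal lists (liver above both). No paired analysis was possible because each organ has 1 list and no values per library. No replicate could be left out for the same reason; each pair of lists gave 833 to 891 regions. Read depth is unknown.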

Other observations

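The X chromosome held 12 of the regions, or 0.242 per eligible Mb, and the Y chromosome 0, against 0.681 per eligible Mb over all chromosomes. Among the autosomes the density ran from 0.419 on chromosome 18 to 0.940 on chromosome 9. The labels do not give the sex of the mice.

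Antigen receptor loci, which are annotated as single genes, held 4 of the regions. That in the T-cell receptor alpha locus Tcra ranked at 12.5 in liver, at 54.4 in spleen and at 77.8 in thymus (chr14:53563501-53563750). The immunoglobulin heavy chain locus Igh held one at 1.58, 59.2 and 39.4 (chr12:115045101-115045450), and the kappa locus Igk a pair at 40.7, 64.2 and 37.0 and at 11.8, 49.96 and 34.7. The noncoding gene Airn, an antisense transcript of Igf2r, held one at 98.2, 85.0 and 90.5 (chr17:12791501-12791950). Of the 781 regions, 0 overlapped a miRNA hairpin and 6 lay within 5 kb of one. These genes were picked after their values were seen.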
